A study of Homo sapiens with 4 samples.

Results

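The aminoacyl-tRNA synthetases were followed by RNA sequencing in SK-N-BE(2) cells, a neuroblastoma line with amplified MYCN. The set holds 35 genes, 19 for cytosolic and 16 for mitochondrial enzymes, taken by symbol from the 64252 rows of the deposited count table, with older names such as AARS translated. All 35 had 1 row each and all 35 were among the 19767 genes that passed the low-count filter. The 2 shIGF2BP3 libraries came from cells transfected with a short hairpin RNA against the RNA-binding protein IGF2BP3. The 2 shControl libraries came from the same line with a control hairpin. The labels name neither the number of hairpin sequences nor the time after transfection, nor do they call the replicates separate cultures. The p-values therefore cover the spread among 4 libraries, possibly a technical one. The title of the series concerns E2F2 mRNA stability under m6A and IGF2BP3.

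A synthetase joins an amino acid to its tRNA and so sets the reading of the genetic code. Human cells keep a cytosolic set for translation on cytosolic ribosomes and a nuclear-encoded mitochondrial set for the proteins made inside mitochondria. GARS1 and KARS1 each serve both compartments from a single gene. Many cytosolic synthetase genes are known targets of ATF4, the transcription factor of the amino acid response, and bind it at a composite C/EBP-ATF response element. That response starts with the kinase GCN2 (gene EIF2AK4), which is activated by uncharged tRNA.

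Total counts lay between 26755695 and 31946756 per library. The knocked-down gene, IGF2BP3, had a mean of 147.7 ± 12.5 CPM in control and 30.3 ± 2.26 CPM in knockdown libraries (SD, n = 2 each). CPM are depth-scaled counts, here with TMM factors. All 10 neuroblastoma markers checked, HAND2 among them, had counts in every library, and 8 of them fell, 1 rose and 1 did not pass the test. Their sum was 7654 and 7932 CPM in shControl and 6211 and 5823 CPM in shIGF2BP3. Of 12 markers of other cell types CD3E, PECAM1 and SOX10 were at 0 counts throughout, while COL1A1, LUM and DCN, known from fibroblasts, stood between 67.3 and 229.7 CPM in the group means. The 12 markers summed to 358.3 and 367.2 CPM in shControl and to 445.1 and 426.2 CPM in shIGF2BP3. The part of either marker list in the synthetase results was not tested. In bulk RNA, fewer cells of a type and less RNA per cell cannot be told apart.

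The response element was looked for in the promoters because it is the feature by which synthetase genes are known to be regulated together. RefSeq promoter windows of build GRCh38.p14, from 250 bases before to 50 bases after a transcription start, were matched to 30 of the 35 members, with 39 windows. LARS1, VARS1, YARS1, AARS2 and VARS2 had no entry. The word TGATGNAA, on either strand, was found in 8 of the 39 windows (20.5%) and in 3.62% of all 35116 windows of the table. Counted by gene, 8 of 30 members and 2.84% of the 12305 tested genes with a window held it. It stood in 7 cytosolic members and in 1 mitochondrial member. Each sequence is written 5′ to 3′ on the strand of its gene, with the match in capitals.
AARS1 (chr16:70289676-70289703, minus strand): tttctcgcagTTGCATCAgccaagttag
GARS1 (chr7:30594835-30594862, plus strand): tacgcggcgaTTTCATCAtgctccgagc
CARS1 (chr11:3057408-3057435, minus strand): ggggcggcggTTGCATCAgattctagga
IARS1 (chr9:92293693-92293720, minus strand): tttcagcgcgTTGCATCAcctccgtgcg
NARS1 (chr18:57621805-57621832, minus strand): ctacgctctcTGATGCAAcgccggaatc
MARS1 (chr12:57488054-57488081, plus strand): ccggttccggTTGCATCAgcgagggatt
TARS1 (chr5:33440957-33440984, plus strand): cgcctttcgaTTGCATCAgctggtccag
YARS2 (chr12:32756077-32756104, minus strand): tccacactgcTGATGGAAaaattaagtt
All of the cytosolic matches except that of GARS1 read TGATGCAA on one of the strands. A match is a run of letters and not a measured binding site.

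Genes carrying the element did not move in a single direction. Of the 7 cytosolic members with a match, AARS1, GARS1, CARS1 and IARS1 rose after knockdown, MARS1 and TARS1 fell, and NARS1 did not pass the test. Their median log2 fold change was 0.21. Of the 9 cytosolic members with a window and no match, there were 3 higher, 2 lower and 4 uncalled genes (median 0.09). Over all tested genes 51.5% were called, 25.9% higher and 25.6% lower, and the share was 66.7% for protein-coding genes within the members' range of average expression. With so few members, no difference between those with and without a match is read from these counts or medians. Fold changes are shIGF2BP3 over shControl on the log2 scale, and calls are those of edgeR's quasi-likelihood test over all tested genes with a Benjamini-Hochberg adjusted p under 0.05.

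The synthetases moved in both directions and by small amounts. Of the 19 cytosolic members 7 rose, 6 fell and 6 did not pass the test. Of the 16 mitochondrial members 2 rose, 4 fell and 10 did not pass. Over all tested genes 51.5% were called, 25.9% higher and 25.6% lower, against 68.4% of cytosolic and 37.5% of mitochondrial members. Among the 11051 protein-coding genes within the members' range of average expression the share was 66.7%, and the cytosolic share lay near it. That range starts at an average log2 CPM of 2.22 (VARS2), while the lowest cytosolic member, VARS1, stood at 5.26. A share at cytosolic levels alone is not shown. The mitochondrial members had lower counts and a median standard error (SE) of 0.12, against 0.07 for the cytosolic members. The part of that difference in the number of calls was not tested.

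The median log2 fold change was 0.09 in the cytosolic and -0.04 in the mitochondrial set, a difference of 0.14, against 0.01 for all tested genes. It ranged from 0.0935 to 0.218 with any one library left out, the highest without shIGF2BP3 replicate 2. Summed over the 19 cytosolic genes the level was 3276 and 3224 CPM in shControl and 3303 and 3240 CPM in shIGF2BP3, so the groups overlapped. The 16 mitochondrial genes summed to 647.8 and 628.2 CPM in shControl and to 611.1 and 586.1 CPM in shIGF2BP3, without overlap. IARS2, the most abundant of them, alone went from 174.7 and 159.2 CPM to 132.3 and 124.2 CPM, while EARS2 and AARS2 rose. Both sums rest on TMM factors of 0.964 and 0.981 in shControl and 1.03 in each shIGF2BP3 library. Whether the groups overlap under another scaling was not tested, so no fall of the whole mitochondrial set is read from its sum. None of the cytosolic members past the test changed by 1.5-fold or more, though WARS1 and AARS1 lay just under it (1.48-fold each). Of the mitochondrial members 4 did (EARS2, AARS2, TARS2 and YARS2). Over all tested genes 6639 of 19767 were called with a change of that size. Single-gene groups did not overlap for 16 of 19 cytosolic and 7 of 16 mitochondrial members, beside 74.5% of all tested genes. Of the 16 cytosolic members 9 were higher and 7 lower, and of the 7 mitochondrial members 2 were higher and 5 lower, where 37.8% and 36.7% of all tested genes were higher and lower without overlap.

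**Figure D1:**
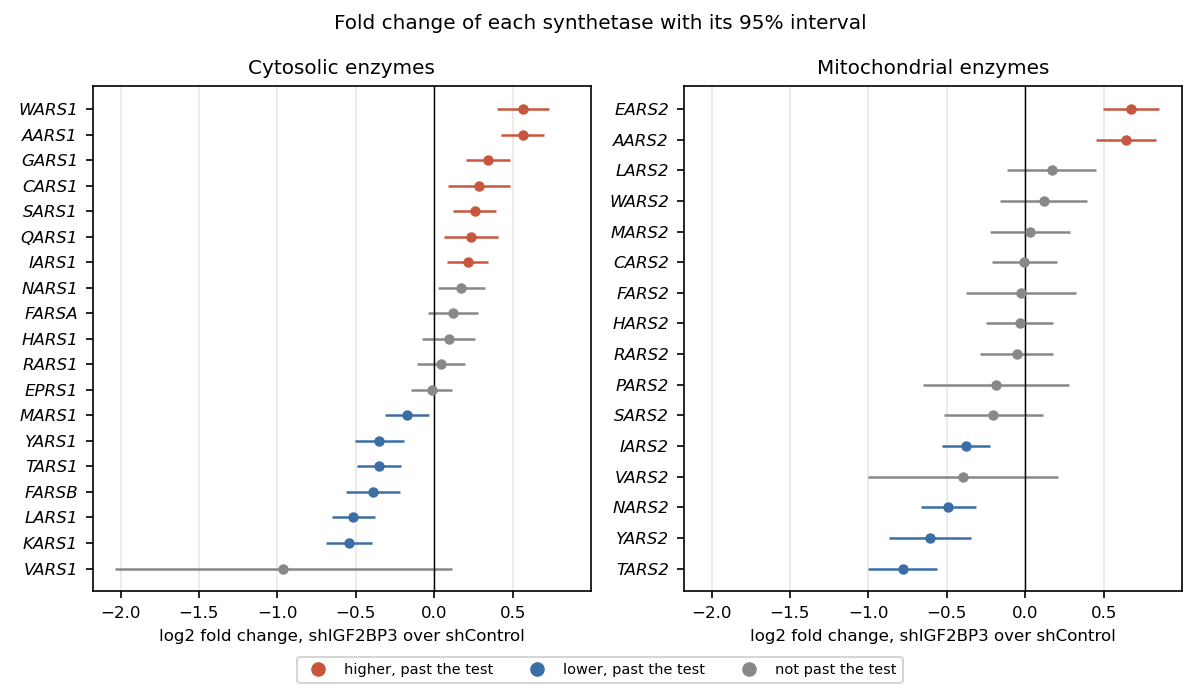
Log2 fold change of each synthetase (x axis, shIGF2BP3 over shControl) with its 95% interval from the fit, cytosolic members on the left and mitochondrial members on the right. Red and blue points passed the test as higher or lower and grey points did not; the 7 red and 6 blue cytosolic points spread over a narrow range, and EARS2, AARS2, TARS2 and YARS2 are the outer points past the test on the right.

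Among cytosolic enzymes that rose, WARS1 and AARS1 had the largest changes. AARS1, which charges alanine (ENSG00000090861, chromosome 16, 70252295 to 70289543, minus strand), stood at 221.5 and 234.6 CPM in shControl and at 347.3 and 326.8 CPM in shIGF2BP3 (log2 0.56, SE 0.07, adjusted p = 1.16e-06). WARS1, which charges tryptophan and is known to be induced by interferon gamma (ENSG00000140105, chromosome 14, 100333788 to 100376805, minus strand), went from 69.2 and 73.5 CPM to 109.3 and 102.2 CPM (log2 0.57, SE 0.08, adjusted p = 9.29e-06). Both knockdown libraries lay well above both control libraries for each gene. GARS1, the glycine enzyme of both compartments, stood at 208.2 and 193.1 CPM in shControl and 250.9 and 257.3 CPM in shIGF2BP3 (log2 0.34, SE 0.07). Its promoter shows a TTTCATCA match, against TTGCATCA in AARS1. SARS1, which charges the serine and the selenocysteine tRNAs, rose from 215.2 and 204.9 CPM to 251.7 and 250.1 CPM (log2 0.26, SE 0.06).

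CARS1, QARS1 and IARS1, the enzymes for cysteine, glutamine and isoleucine, rose less firmly. CARS1 rose from 38.8 and 37.7 CPM to 45.6 and 47.5 CPM (log2 0.28, SE 0.09, adjusted p = 0.0177), a call lost when the second library of either group was left out (adjusted p = 0.103 in both cases). QARS1 rose from 74.3 and 81.7 CPM to 94.8 and 88.7 CPM (log2 0.23, SE 0.08, adjusted p = 0.0232). Keeping low-count genes ended that call (adjusted p = 0.0698), as did leaving out the first library of shIGF2BP3 (0.158) or of shControl (0.174). IARS1 went from 399.6 and 384.6 CPM to 450.1 and 458.4 CPM (log2 0.21, SE 0.06, adjusted p = 0.0071), and its call ended without shControl replicate 2 (0.0753). For all 3 genes the groups did not overlap.

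Among cytosolic enzymes that fell, KARS1 and LARS1 had the largest changes past the test. KARS1, the lysine enzyme of both compartments (ENSG00000065427, chromosome 16, 75627474 to 75648643, minus strand), fell from 192.6 and 188.3 CPM to 133.7 and 127.5 CPM (log2 -0.54, SE 0.07, adjusted p = 2.85e-06). LARS1, which charges leucine and is known as a leucine sensor upstream of mTORC1 (ENSG00000133706, chromosome 5, 146113038 to 146182660, minus strand), fell from 413.6 and 386.3 CPM to 275.6 and 283.9 CPM (log2 -0.52, SE 0.06, adjusted p = 2.47e-06). KARS1 and GARS1, the pair of genes that serve both compartments, therefore moved in opposite directions. TARS1, the threonine enzyme, fell from 200.3 and 204.4 CPM to 160.5 and 157.0 CPM (log2 -0.35, SE 0.07). YARS1, the tyrosine enzyme, fell from 135.8 and 151.2 CPM to 114.3 and 111.1 CPM (log2 -0.35, SE 0.07).

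FARSA and FARSB encode the alpha and beta subunits of the same enzyme, the cytosolic phenylalanine synthetase. FARSB fell from 136.4 and 118.5 CPM to 98.8 and 95.3 CPM (log2 -0.39, SE 0.08, adjusted p = 0.000521). FARSA stood at 103.4 and 110.6 CPM in shControl and 120.1 and 112.4 CPM in shIGF2BP3 (log2 0.12, SE 0.08), with a 95% interval from -0.04 to 0.28. The intervals of the subunits did not overlap, that of FARSB running from -0.56 to -0.22. FARSA passed the test, as higher, with scaling by library size alone (adjusted p = 0.0372).

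MARS1, which charges both initiator and elongator methionine tRNAs, gave the least stable call. It went from 169.8 and 166.9 CPM to 149.6 and 149.0 CPM (log2 -0.17, SE 0.07, adjusted p = 0.0396). The call ended whichever library was left out, with adjusted p between 0.0511 and 0.147, with scaling by library size alone (0.251), without the low-count filter (0.0674) and with the replicate block (0.07). MARS1 shares 355 exonic bases with DDIT3 on the opposite strand, and DDIT3, the stress factor CHOP, rose by 0.92 on the log2 scale.

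VARS1, the valine enzyme, had the lowest fold change of the set and did not pass the test. It stood at 46.2 and 54.9 CPM in shControl and at 33.2 and 18.7 CPM in shIGF2BP3 (log2 -0.96, SE 0.33, adjusted p = 0.11, 95% interval -2.03 to 0.11). Both knockdown libraries were below both control libraries, but they differed from each other by more than the control libraries did. VARS1 was not called with either shControl library left out (log2 -1.08 without replicate 1, -0.85 without replicate 2). It was called lower with either shIGF2BP3 library left out (log2 -1.43 without replicate 1, -0.61 without replicate 2). Those latter fits hold a single knockdown library, so the difference between the knockdown libraries does not enter them. DESeq2 (adjusted p = 0.0437), the fit without the low-count filter (0.0297) and the replicate block (4.58e-16) called it too. The SE was 0.12 with the replicate block, against 0.33 in the main fit. Yet from replicate 1 to replicate 2 the level fell in shIGF2BP3 and rose in shControl, which a shared replicate term does not describe. No firmer call is read from the block's p-value. VARS1 and VARS2 lie in the MHC region of chromosome 6, for which the hg38 assembly holds alternate copies. Whether reads went to rows of such copies was not tested.

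The remaining cytosolic members did not pass the test. NARS1, the asparagine enzyme, was the nearest to it, with 111.5 and 111.2 CPM in shControl and 127.4 and 123.3 CPM in shIGF2BP3 (log2 0.17, SE 0.07, adjusted p = 0.054). With scaling by library size alone it passed (adjusted p = 0.00663). EPRS1, the fused enzyme for glutamate and proline, stood at 339.3 and 330.2 CPM against 330.2 and 331.6 CPM (log2 -0.02), with a 95% interval from -0.15 to 0.11. RARS1 (log2 0.04, 95% interval -0.11 to 0.20) and HARS1 (log2 0.09, -0.08 to 0.26), for arginine and histidine, had overlapping groups as well.

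Among mitochondrial enzymes EARS2 and AARS2 rose. EARS2, which charges mitochondrial tRNAs for glutamate and also places glutamate on the glutamine tRNA (ENSG00000103356, chromosome 16, 23522014 to 23557731, minus strand), stood at 52.3 and 50.1 CPM in shControl and at 84.7 and 78.8 CPM in shIGF2BP3 (log2 0.68, SE 0.08, adjusted p = 2.68e-06). AARS2, the mitochondrial alanine enzyme (ENSG00000124608, chromosome 6, 44299654 to 44313326, minus strand), went from 43.5 and 47.7 CPM to 75.1 and 67.4 CPM (log2 0.64, SE 0.09, adjusted p = 1.29e-05). Neither gene's groups overlapped. AARS2 shares 235 exonic bases, 5.47% of its exons, with TMEM151B on the opposite strand, which rose by 2.68 on the log2 scale. EARS2 shares 370 bases with UBFD1, whose log2 fold change was 0.06. Some overlapping genes on the opposite strand moved the way of their synthetase. S100PBP, over 4.82% of the exons of YARS1, fell by 0.90 on the log2 scale. GARS-DT, over 2.38% of those of GARS1, rose by 0.72. MRPS12, over 10.8% of those of SARS2, fell by 0.79, while SARS2 itself did not pass the test (log2 -0.20). ING1, over 3.12% of the exons of CARS2, fell by 0.67, while CARS2 did not pass the test (log2 -0.01). TERF2IP, over 4.33% of the exons of KARS1, rose by 0.23 while KARS1 fell. Whether counting used strand is not stated by the labels, and the part of these overlaps was not tested.

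The mitochondrial enzymes for threonine, tyrosine, asparagine and isoleucine fell. TARS2 (ENSG00000143374, chromosome 1, 150487364 to 150507609, plus strand) fell from 50.1 and 51.8 CPM to 32.1 and 27.1 CPM (log2 -0.78, SE 0.10, adjusted p = 5.72e-06), the largest change past the test in either set. YARS2 fell from 31.4 and 28.1 CPM to 21.1 and 17.9 CPM (log2 -0.61, SE 0.13, adjusted p = 0.000533). NARS2 fell from 82.0 and 77.7 CPM to 57.1 and 56.6 CPM (log2 -0.49, SE 0.08). IARS2, the most abundant mitochondrial member, fell from 174.7 and 159.2 CPM to 132.3 and 124.2 CPM (log2 -0.38, SE 0.07). All 4 had every knockdown library below every control library, and these calls held when any single library was left out.

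The other 10 mitochondrial members had log2 fold changes from -0.40 (VARS2) to 0.17 (LARS2) and did not pass the test. For CARS2 (log2 -0.01, 95% interval -0.21 to 0.20), HARS2 (-0.04, -0.25 to 0.18) and RARS2 (-0.05, -0.29 to 0.18), the cysteine, histidine and arginine enzymes, the intervals leave room for changes as large as those called in IARS1. PARS2, for proline, had only 138 to 212 counts per library (95% interval -0.65 to 0.28). VARS2 had 96 to 205 counts, shares 21.99% of its exonic bases with GTF2H4 on the same strand, and was called lower only without shControl replicate 1 (log2 -0.72, adjusted p = 0.0331), with a log2 fold change of 0.07 without shControl replicate 2. SARS2, the serine enzyme, stood at 19.1 and 19.4 CPM in shControl and at 19.2 and 14.1 CPM in shIGF2BP3, so that a single knockdown library was low. FARS2, MARS2, WARS2 and LARS2, for phenylalanine, methionine, tryptophan and leucine, had overlapping groups.

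**Figure D2:**
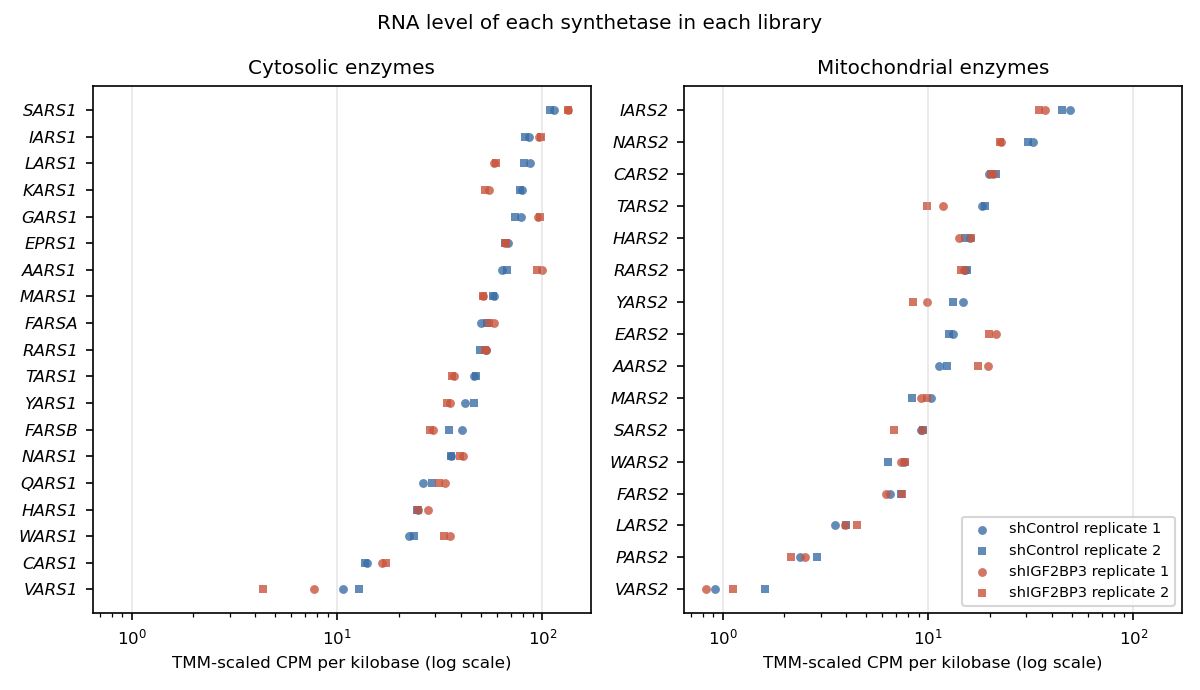
TMM-scaled CPM per kilobase of the longest coding transcript (x axis, log scale) for each synthetase in each library, cytosolic members in the left and mitochondrial members in the right panel, each ordered by the mean in shControl, with shControl in blue and shIGF2BP3 in red and replicates as circles and squares. Red points stand right of blue for AARS1, WARS1, EARS2 and AARS2 and left of blue for KARS1, LARS1 and TARS2.

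Per kilobase of transcript, cytosolic synthetases were the more abundant set. The median over members in shControl was 51.3 CPM per kilobase for cytosolic and 12.4 for mitochondrial genes. SARS1 was highest at 112 ± 3.86 CPM per kilobase in shControl, followed by IARS1 at 84.2 ± 2.28, LARS1 at 83.9 ± 4.05, KARS1 at 78.7 ± 1.246 and GARS1 at 76.2 ± 4.05 (SD, n = 2 each). IARS1 and LARS1, and KARS1 and GARS1, did not differ beyond these spreads. In shIGF2BP3 SARS1 remained highest at 133.3 ± 0.60, and AARS1 (96.9 ± 4.16), IARS1 (97.6 ± 1.26) and GARS1 (96.5 ± 1.72) came next without separation. LARS1 went from the third to the sixth place. VARS2 was the lowest in both groups, at 1.26 ± 0.486 and 0.98 ± 0.209 CPM per kilobase. IARS2, at 46.9 ± 3.07 in shControl, was the mitochondrial gene nearest to the cytosolic level.

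Enzymes of the same amino acid were set side by side in 17 pairs covering 16 amino acids, with EPRS1 and FARS2 each used in more than one pair. In the alanine pair both enzymes rose. In the threonine and tyrosine pairs both fell. In the isoleucine pair the cytosolic enzyme rose and the mitochondrial enzyme fell. In 6 pairs only the cytosolic enzyme passed the test (leucine, methionine, cysteine, tryptophan, serine and FARSB for phenylalanine) and in 2 only the mitochondrial enzyme (glutamate and asparagine). Neither passed in the other 5. Passing in only one of the compartments does not show that the enzymes differ, so ratios were taken within each library.

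The log2 ratio of the cytosolic to the mitochondrial enzyme, per kilobase, shifted without overlap of the groups in 13 of 17 pairs, 5 toward the mitochondrial and 8 toward the cytosolic enzyme. No share over other gene pairs was computed, and since the groups of 74.5% of single tested genes did not overlap, nothing particular to the pairs is read from that count. Glutamate, leucine and valine had like shifts toward the mitochondrial enzyme, of -0.69 each, and no order among them is shown. EPRS1 over EARS2 stood at 2.36 and 2.38 in shControl and at 1.62 and 1.73 in shIGF2BP3. LARS1 over LARS2 stood at 4.62 and 4.35 against 3.87 and 3.72, and VARS1 over VARS2 at 3.54 and 2.98 against 3.21 and 1.94, where the groups overlapped. In the opposite direction, the asparagine ratio NARS1 over NARS2 went from 0.14 and 0.22 to 0.86 and 0.82, and the isoleucine ratio IARS1 over IARS2 from 0.81 and 0.89 to 1.38 and 1.496. The alanine ratio changed by only -0.08, since AARS1 and AARS2 rose by a like amount. Cysteine was the exception in level, with more CARS2 than CARS1 per kilobase in all 4 libraries (log2 ratio -0.57 ± 0.103 in shControl, SD, n = 2). That order rests on the transcript lengths used, 2758 bases for CARS1 and 1879 for CARS2. Before division by length, CARS1 stood at 45.6 and 47.5 CPM in shIGF2BP3 and CARS2 at 39.1 and 38.1 CPM. In shControl CARS1 stood at 38.8 and 37.7 CPM and CARS2 at 37.3 and 40.1 CPM.

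**Figure D3:**
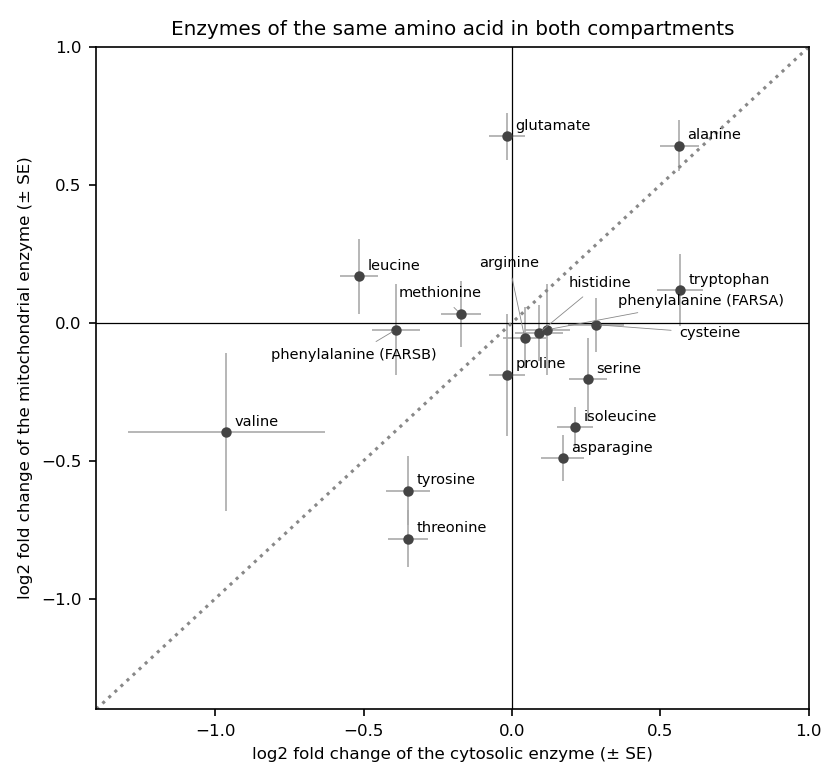
Log2 fold change of the cytosolic enzyme (x axis) against that of the mitochondrial enzyme (y axis) for each amino acid, with SE as bars and the line of equal change dotted. Alanine lies at the upper right near the line, threonine and tyrosine at the lower left, isoleucine and asparagine at the lower right, and glutamate at the top with no change of EPRS1.

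Of the cytosolic enzymes, 7 are known parts of the multi-synthetase complex, an assembly held together by the scaffold proteins AIMP1, AIMP2 and EEF1E1. Of these 7 genes, IARS1 and QARS1 rose, KARS1, LARS1 and MARS1 fell, and EPRS1 and RARS1 did not pass the test, with a median of -0.02. Their summed level was 1703 and 1645 CPM in shControl and 1548 and 1552 CPM in shIGF2BP3, with no overlap. Of the 12 cytosolic genes outside the complex 5 rose and 3 fell, with sums of 1573 and 1580 CPM against 1756 and 1688 CPM. The shares called, 71.4% in the complex and 66.7% outside it, lay near the 66.7% of protein-coding genes within the expression range of all members. That range reaches below the cytosolic members, so a share at their own levels is not shown. The 3 scaffold genes did not pass the test, with log2 fold changes of -0.03 for AIMP1, -0.01 for AIMP2 and -0.13 for EEF1E1.

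Glutamine is charged in mitochondria by an indirect route, in which the amidotransferase of QRSL1, GATB and GATC converts the glutamate that EARS2 has placed on the tRNA. GATC rose from 81.0 and 84.3 CPM to 120.4 and 117.7 CPM (log2 0.53, SE 0.07, adjusted p = 1.09e-05). The other subunits did not pass the test, with log2 fold changes of 0.07 for QRSL1 and -0.01 for GATB. MTFMT, which formylates the mitochondrial initiator tRNA, had a log2 fold change of 0.34 (adjusted p = 0.0614) and was not called.

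Genes of tRNA maturation and export, 26 in the list, moved both ways, from -1.17 to 0.90 on the log2 scale. There were 8 higher, 12 lower and 6 uncalled genes, and the median was -0.14. The share called was 76.9%, beside 51.5% of all tested genes and 66.7% of the protein-coding genes at the synthetases' expression levels. XPOT, the exporter of tRNAs from the nucleus, rose from 394.7 and 365.9 CPM to 647.6 and 674.2 CPM (log2 0.80, SE 0.06, adjusted p = 8.28e-09). NSUN2, a tRNA cytosine methyltransferase, fell by 0.88 on the log2 scale. The mitochondrial RNase P, which frees tRNAs from the mitochondrial precursor, has 3 subunits. PRORP, its nuclease, fell by 1.17 and HSD17B10 rose by 0.90, while TRMT10C, named after its value was seen, did not pass the test (log2 -0.01, adjusted p = 0.928).

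The amino acid response, the pathway known to raise many synthetases, had 12 higher, 11 lower and 9 uncalled genes of 32, with a median of 0.03. Its share of called genes, 71.9%, lay near the 66.7% of those protein-coding genes. PSAT1 and PHGDH, enzymes of serine synthesis, fell by 2.38 and 0.86 on the log2 scale, and the glutamine carrier SLC1A5 fell by 1.11. EIF2AK3, the kinase PERK, rose by 1.26 on the log2 scale. Of genes named after their values were seen, ATF4 did not pass the test (335.4 ± 3.48 against 302.7 ± 15.8 CPM, log2 -0.15, adjusted p = 0.063), although DESeq2 (0.0356) and limma voom (0.0453) called it lower. ASNS, a synthetase of asparagine, fell by 0.63, EIF2AK4 fell by 0.29, and DDIT3 rose by 0.92. Since the list held 12 higher and 11 lower genes, no level of ATF4 activity is read from these single genes, and that activity was not tested. The call of EIF2AK4 ended without shControl replicate 1 (adjusted p = 0.0504). Of the 12 synthetases listed as ATF4 targets from general knowledge, 6 rose, 4 fell and 2 were not called (median 0.19, beside 0.01 for all tested genes). The share called was 83.3%, beside 51.5% of all tested genes and 68.4% of all cytosolic members. It was 66.7% for the protein-coding genes within the members' range of average expression.

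Other regulators tied to synthetase genes gave the following values. MYCN, a factor that binds the E-box word CACGTG, fell by 0.22 on the log2 scale, a call that ended without shIGF2BP3 replicate 2 (adjusted p = 0.0857). That word, its own reverse complement, was in 5 of 39 member windows, those of IARS1, EARS2, CARS2 and MARS2, beside 7.26% of all windows. By gene, 4 of 30 members held it, near the 12.26% of tested genes with a window. E2F2 fell by 1.69 on the log2 scale. The words TTTCCCGC or TTTGGCGC, forms of the E2F site, stood on either strand in windows of 2 of 30 members, TARS1 and RARS2, beside 2.27% of all windows and 4.24% of tested genes with a window.

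**Figure D4:**
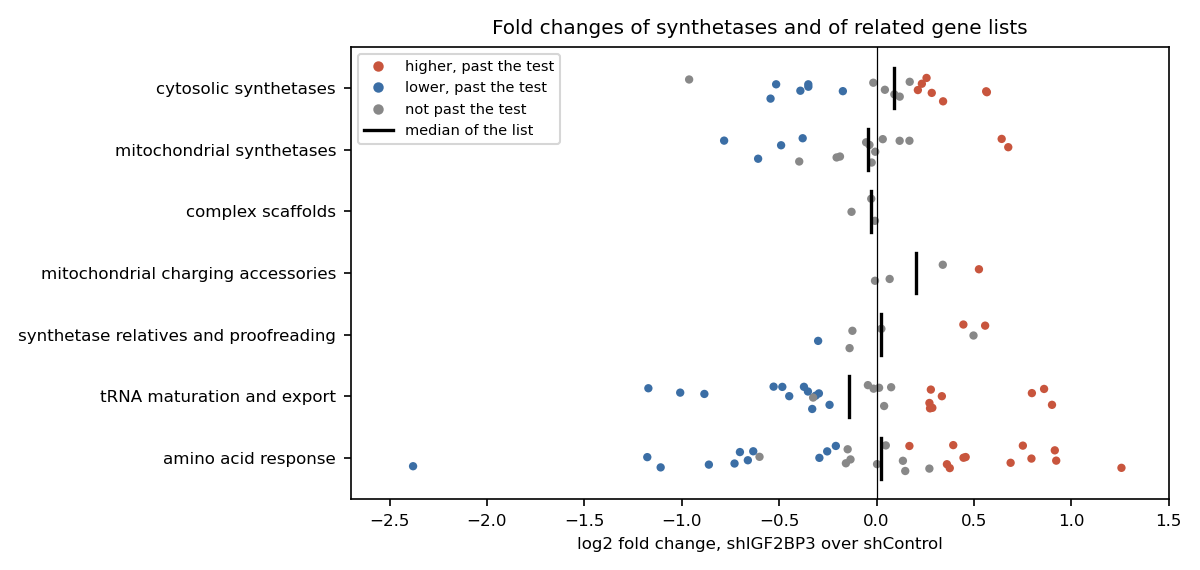
Log2 fold change (x axis) of each tested gene in the synthetase sets and in lists of related genes, 1 point per gene with random vertical spread, red and blue where higher or lower past the test, and a black bar at each median. Synthetase points lie between -0.96 and 0.68, tRNA maturation points between -1.17 and 0.90, and amino acid response points between PSAT1 at -2.38 and EIF2AK3 at 1.26.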

How the data were processed

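The authors deposited whole-number counts per Ensembl gene for 4 libraries made from total RNA with an Illumina TruSeq kit, per the labels' protocols. The submitters' processing notes list HISAT2 2.2.0, StringTie and hg38 with no settings. How reads were counted, and with which strand setting, is not given in the sources used here. Symbols came from a gene name table (56105 identifiers) and GENCODE release 29 (486), while 7661 identifiers had none. Gene coordinates follow GENCODE release 29 (GRCh38). The 14 pseudogenes named after members held 6 counts in all, and 19 members share exonic bases with another annotated gene.

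The test was edgeR 4.0.16's (R 4.3.3): filterByExpr with smallest count 10, TMM scaling, robust quasi-likelihood test, Benjamini-Hochberg adjustment over all 19767 tested genes, threshold 0.05. SEs are the fold change over the root of F. Levels per kilobase use the longest coding transcript. Alternatives used DESeq2 1.42.0, limma 3.58.1 voom, other scalings, no filter, a replicate block, single libraries left out, summed rows, a minimum fold change and edgeR's older fit. That older fit was run first, called 9894 genes against 10178, and was made an alternative after the data were seen, to follow the earlier processing of these data. Same-numbered libraries had a correlation of deviations of 0.0208 and were not read as pairs. In simulated counts of this comparison (19140 genes, 50 genes per fold size), 29 were found at 1.5-fold, 42 at 2-fold and 49 at 4-fold, and 8 calls were false. At the smallest simulated size, 1.25-fold, 10 were found. Far fewer genes were changed in the simulation than were called here, so these counts do not give the recovery in the real data. The members and lists, promoter words included, were chosen with earlier results of these data known. All members, IGF2BP3, E2F2, MYCN and the markers could be named, and of each related list up to 4 genes by smallest p among those past the test with groups that did not overlap. Some genes of the related lists are not reported here.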

Additional observations from a re-analysis of the deposited data

How the results depend on the processing

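IGF2BP3 was lower and past the test under all 12 alternatives that gave a value, with log2 fold changes of -2.39 to -2.20 after leaving out any one library. The counts of called synthetases stayed within 1.5 times their main values, except under a further condition of an absolute log2 fold change of at least 0.5. That condition, by its construction, left 2 higher and 2 lower cytosolic and 2 lower mitochondrial members. The total of called synthetases was 19, and 16 to 20 under the other 12 alternatives. The difference of medians between the sets, 0.14, ranged from 0.0935 to 0.218 with any one library left out, and the cause was not tested. Of 420 values of synthetases under alternatives, 399 kept their side of the test, 13 lost a call and 8 gained one, while 0 called values turned. Scaling by library size alone moved the median of all genes from 0.01 to 0.09. The replicate block gave 5291 genes higher and 5218 lower, against 5120 and 5058, and 7 and 6 cytosolic and 2 and 4 mitochondrial members. It ended the call of MARS1 and made that of VARS1. At this depth and with 2 libraries a group, 20% of genes changed by the smallest simulated fold were recovered.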

Other observations

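Relatives of the synthetases and genes of proofreading gave 3 calls among 7 genes (42.9%, beside 51.5% of all tested genes). TARS3, a threonine synthetase paralog, rose from 17.3 and 17.0 CPM in shControl to 23.1 and 23.6 CPM in shIGF2BP3 (log2 0.45, SE 0.12, adjusted p = 0.00615), while TARS1 and TARS2 fell. SEPHS2, which makes the selenium donor for selenocysteine tRNA, rose from 73.2 and 70.5 CPM to 108.4 and 103.0 CPM (log2 0.56, SE 0.08). PSTK and SEPSECS, the other genes of selenocysteine tRNA synthesis in the list, did not pass the test, with log2 fold changes of -0.12 and 0.03. DTD1, which removes D-amino acids from tRNA, fell by 0.30 on the log2 scale, a call that ended without shIGF2BP3 replicate 2 (adjusted p = 0.0796). By structural class, 5 of 18 class I synthetases rose and 5 fell, and 4 of 16 class II synthetases rose and 5 fell, with medians of 0.01 and -0.03. The shares called, 55.6% in class I and 56.2% in class II, lay near the 51.5% of all tested genes. Nothing particular to a class is read from these counts. EPRS1, which joins a class I and a class II part, was left out of both.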
